A study of Mus musculus with 12 samples.

Results

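The Wnt ligands, their frizzled receptors, the secreted frizzled-related proteins and 8 further genes of the pathway were followed in the hippocampus of mouse pups. Members were all genes of the deposited table whose symbol begins with Wnt, Fzd or Sfrp and a digit, pseudogenes left out, together with the co-receptors Lrp5 and Lrp6, the effector Ctnnb1, and the modulators Axin2, Nkd1, Rspo2, Dkk3 and Tcf7l1. They came to 40 of 29454 genes: 18 ligands, 10 frizzled receptors, 4 Sfrp genes and 8 others. RNA of 12 libraries was sequenced as paired reads after ribosomal RNA was depleted. The 3 wild-type (WT) libraries came from littermates without either transgene. The 3 CAMK libraries came from littermates with the CaMKIIα-tTA driver, a transgene that places the tetracycline transactivator under the CaMKIIα promoter, active in neurons of the forebrain. In the 6 CX3CL1-ct libraries the littermates had that driver and the Tg-CX3CL1-ct transgene, which carries the C-terminal part of the chemokine CX3CL1. CX3CL1-ct against CAMK therefore compares pups that all carry the driver, CX3CL1-ct against WT adds the driver to the difference, and CAMK against WT shows the driver alone. All groups are labelled C57/BL6, and the transgenic line had been crossed to C57BL/6J for 6 generations. The samples are labelled postnatal day 4, while the series' design text gives postnatal day 0.

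Wnt proteins are secreted lipid-modified ligands that bind frizzled receptors, seven-pass membrane proteins, together with the co-receptors Lrp5 and Lrp6. In the best known branch of the pathway, binding stops the breakdown of β-catenin, the product of Ctnnb1, which then enters the nucleus and acts with TCF and LEF proteins. Sfrp proteins bind Wnt ligands outside the cell, and in the embryo Wnt signals from the cortical hem are needed for the hippocampus to form.

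The values are FPKM, in which fragments are counted per transcript length and per library size, so levels can be compared between genes. Depth was estimated at 12300000 to 16200000 fragments a library. Genes with at least 1 FPKM in at least 3 of the 12 libraries were tested, which kept 26 of the 40 members among 16503 genes. Differences are in log2(FPKM + 1), which understates the change of low genes. Every adjusted p is from limma with Benjamini-Hochberg adjustment, over those 16503 genes unless another filter or fit is named. The labels leave it unsaid whether libraries are separate animals, and p-values here cover the spread between samples alone. CX3CL1-ct 1, 2 and 3 were the 3 closest of the 66 library pairs, with median absolute log2 differences of 0.06 to 0.08 over 7211 genes. Hippocampal markers were present in every library (Zbtb20 at 24.7 to 65.8 FPKM, Prox1 at 4.78 to 14.9). Libraries still differed in their makeup. CX3CL1-ct 5 had the lowest summed level of 10 hippocampal neuron genes, 191 FPKM against 317 to 600 in the other 11, and it stood high in thalamic and striatal neuron genes. Striatal neuron genes summed to 252 and 180 FPKM in WT 2 and WT 3 and to 188 in CX3CL1-ct 5, against 33.2 to 59.4 in the other 9. Groups differed as well. The hippocampal list had a median difference from WT of -0.32 in CAMK and -0.30 in CX3CL1-ct. Of its 10 genes, 4 and 2 lay above 0. In 8 neocortical neuron genes the median was 0.94 and 0.61, with 2 below 0 in each. That of all genes was 0.00 and 0.04. No gene of either list had an adjusted p under 0.05. Zbtb20 lay below all WT libraries in both groups (-0.82 and -0.68). The part of these shifts in the comparisons with WT was not tested. In whole tissue, fewer cells of a type and less RNA per cell cannot be told apart.

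The transcripts of this pathway lay over a wide range, and the same few genes led each family in all groups. β-catenin itself, Ctnnb1, was by far the most abundant member at 213 to 259 FPKM. Among ligands, Wnt7b led in every group, followed by Wnt7a and Wnt5a. Fzd3 gave about as much RNA per length as the other frizzled genes together, at 29.9 to 41.2 FPKM of a summed frizzled level of 66.1 to 75.2. Sfrp1 led the Sfrp genes at 8.03 to 14.8 FPKM. The 14 members left out of the tests were Wnt1, Wnt2b, Wnt3a, Wnt5b, Wnt8b, Wnt9b, Wnt10a, Wnt10b, Wnt11, Wnt16, Fzd5, Sfrp4, Sfrp5 and Tcf7l1. Wnt3a and Wnt1, classical ligands of the early neural tube and cortical hem, were listed at 0 in most libraries and nowhere exceeded 0.0340 and 0.132 FPKM.

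**Figure D1:**
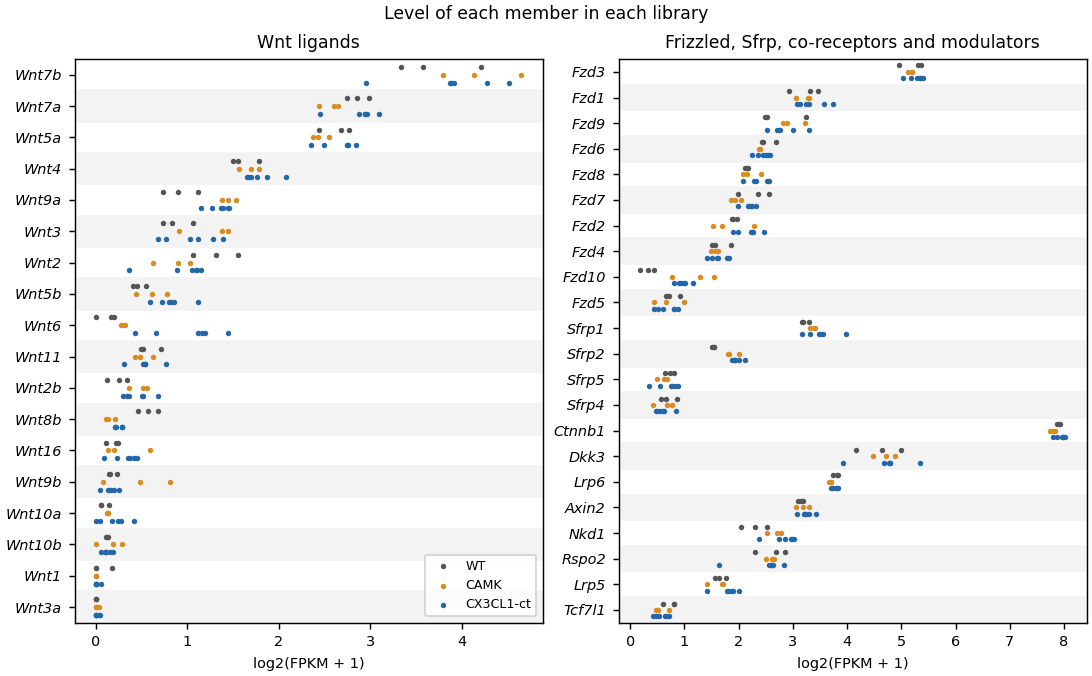
Level of each of the 40 members as log2(FPKM + 1) (x axis) in each library (points), coloured by group. Ctnnb1, at 213 to 259 FPKM, was the highest member in every library, and Wnt1 and Wnt3a were at or near 0 in all 12 libraries.

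One member passed the test in any comparison: Sfrp2 rose in CX3CL1-ct against WT. No member passed in CX3CL1-ct against CAMK, where 0.0606 percent of all genes did, and none in CAMK against WT, where 0.358 percent did. In CX3CL1-ct against WT, 1 of 26 members passed and 0.454 percent of all genes, 0.200 percent in the upward direction. At an unadjusted p under 0.05 the members numbered 3 of 26 in CX3CL1-ct against CAMK (6.37 percent of all genes), 5 in CX3CL1-ct against WT (12.3 percent) and 5 in CAMK against WT (12.4 percent). They were all higher in CX3CL1-ct (5.33 and 8.80 percent of all genes were, in that order), while in CAMK 4 were higher (6.60 percent) and 1 was lower (5.79 percent). With the replicate number as a block, 9 of 26 members had an unadjusted p under 0.05 in CAMK against WT (20.4 percent of all genes), 5 higher and 4 lower, and none passed the adjusted test. The members' median difference was 0.10, 0.12 and 0.01 in these comparisons, and that of all genes 0.04, 0.04 and 0.00. A difference above 0 was found for 20 of 26 members in CX3CL1-ct against CAMK (63.2 percent of all genes), for 20 in CX3CL1-ct against WT (62.7 percent) and for 13 in CAMK against WT (50.5 percent). These comparisons share libraries and are not independent of each other. Fzd10 and Wnt6, which are among the members counted, met the filter on low values without any WT library. Fzd10 met it through CAMK and CX3CL1-ct libraries, and Wnt6 through CX3CL1-ct libraries.

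**Figure D2:**
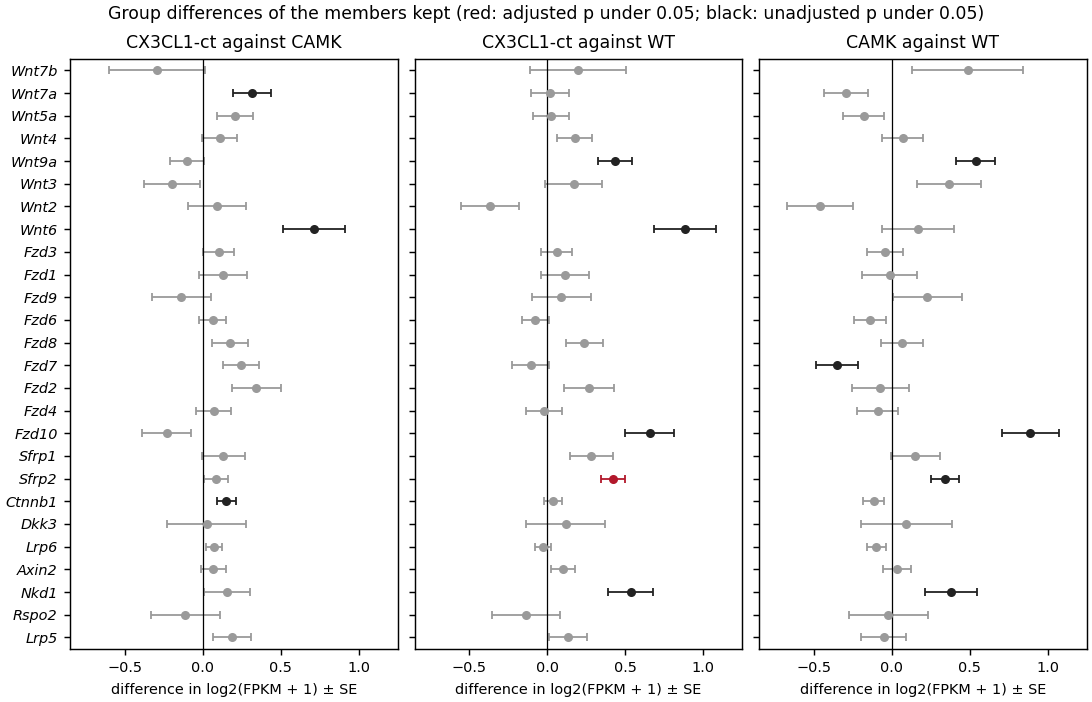
Difference in log2(FPKM + 1) between groups with its SE (x axis) for the 26 members tested, in each of the 3 comparisons. Sfrp2 in CX3CL1-ct against WT, at 0.42, is the point whose adjusted p lay under 0.05, and Wnt6, at 0.71, is the largest difference between CX3CL1-ct and CAMK.

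For 3 members the 250 bases before the start of transcription (RefSeq, GRCm38.p6) are shown so that the sequence stands beside the values. Sfrp2 is the member that passed the test, Wnt6 the one whose CX3CL1-ct libraries lay above all others, and Fzd7 the lower member at an unadjusted p under 0.05 in CAMK against WT, and one of 3 with letters of the TCF/LEF core. The core was searched as CTTTGAA or CTTTGAT or CTTTGTA or CTTTGTT on both strands and stands in capitals.
Sfrp2, chr3:83766071-83766320, plus strand: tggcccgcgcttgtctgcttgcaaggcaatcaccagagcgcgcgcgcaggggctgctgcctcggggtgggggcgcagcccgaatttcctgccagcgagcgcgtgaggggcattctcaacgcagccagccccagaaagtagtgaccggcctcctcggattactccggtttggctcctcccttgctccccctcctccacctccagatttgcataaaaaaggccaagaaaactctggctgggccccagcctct
Wnt6, chr1:74771642-74771891, plus strand: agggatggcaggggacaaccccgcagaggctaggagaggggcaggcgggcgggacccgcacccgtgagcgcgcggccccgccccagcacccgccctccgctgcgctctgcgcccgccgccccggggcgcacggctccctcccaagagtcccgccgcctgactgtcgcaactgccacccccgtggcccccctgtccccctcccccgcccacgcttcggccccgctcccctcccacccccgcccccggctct
Fzd7, chr1:59481897-59482146, plus strand: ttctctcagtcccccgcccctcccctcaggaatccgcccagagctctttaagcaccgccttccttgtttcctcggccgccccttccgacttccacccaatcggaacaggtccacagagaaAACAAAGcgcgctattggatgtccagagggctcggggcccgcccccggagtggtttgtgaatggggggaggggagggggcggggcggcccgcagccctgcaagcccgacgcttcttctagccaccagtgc
GC content was 63.6 percent before Sfrp2, 79.6 before Wnt6 and 65.2 before Fzd7. Of 31 such windows, found for 27 of the 40 members, 3 held the core (9.68 percent), those of Fzd7, Wnt11 and Wnt5b. Of all 32851 promoter windows of that length, 14.8 percent held it. A match of these letters is not a site, and a window without them says nothing of the factor.

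Of the ligands, Wnt6 set the CX3CL1-ct libraries most apart from CAMK. Wnt6 (chromosome 1, 74771892 to 74785322, mm10) is a ligand of the canonical branch. It read 0.121, 0.145 and 0 FPKM in WT, 0.215, 0.205 and 0.246 in CAMK, and 1.29, 1.24, 1.18, 1.73, 0.347 and 0.576 in CX3CL1-ct 1 to 6. All 6 CX3CL1-ct libraries thus lay above the 6 others, with libraries 5 and 6 the lowest of them. Wnt6 was the 1 member of 26 without overlap between CX3CL1-ct and CAMK, against 3.30 percent of all genes (2.78 percent higher in CX3CL1-ct). The difference from CAMK was 0.71 (SE 0.20, unadjusted p = 0.00400, limma adjusted p = 0.725) and from WT 0.88 (SE 0.20, adjusted p = 0.0909). Neither passed. Wnt6 also met the filter on low values through CX3CL1-ct 1 to 4 alone, so it could be tested, and counted among members without overlap, because it is high there. With CX3CL1-ct 5 left out, the difference from WT was 1.0 and passed (adjusted p = 0.0213), and that from CAMK was 0.83 and did not (adjusted p = 0.315). The RNA is scarce: WT libraries held an estimated 0 to 3.90 Wnt6 fragments, CAMK 5.54 to 7.63 and CX3CL1-ct 10.7 to 53.5.

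Genes of the meninges, the membranes around the brain, and of their fibroblasts followed the same order of groups as Wnt6. The 12 genes of that list summed to 39.4 to 57.5 FPKM in WT, 63.3 to 71.3 in CAMK and 67.0 to 140 in CX3CL1-ct. CX3CL1-ct 4, the highest in Wnt6, was also the highest in this sum, and CX3CL1-ct 5 and 6 were lowest of their group in both. All 12 had a difference above 0 in CX3CL1-ct against WT (62.7 percent of all genes did). Of these 12, 5 passed there, against 0.200 percent of all genes that passed upward. In CX3CL1-ct against CAMK all 12 were above 0 (63.2 percent of all genes) and none passed (0.0606 percent). None of the 12 was at 0 in all libraries of a group. Their part in the Wnt6 result was not tested.

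**Figure D3:**
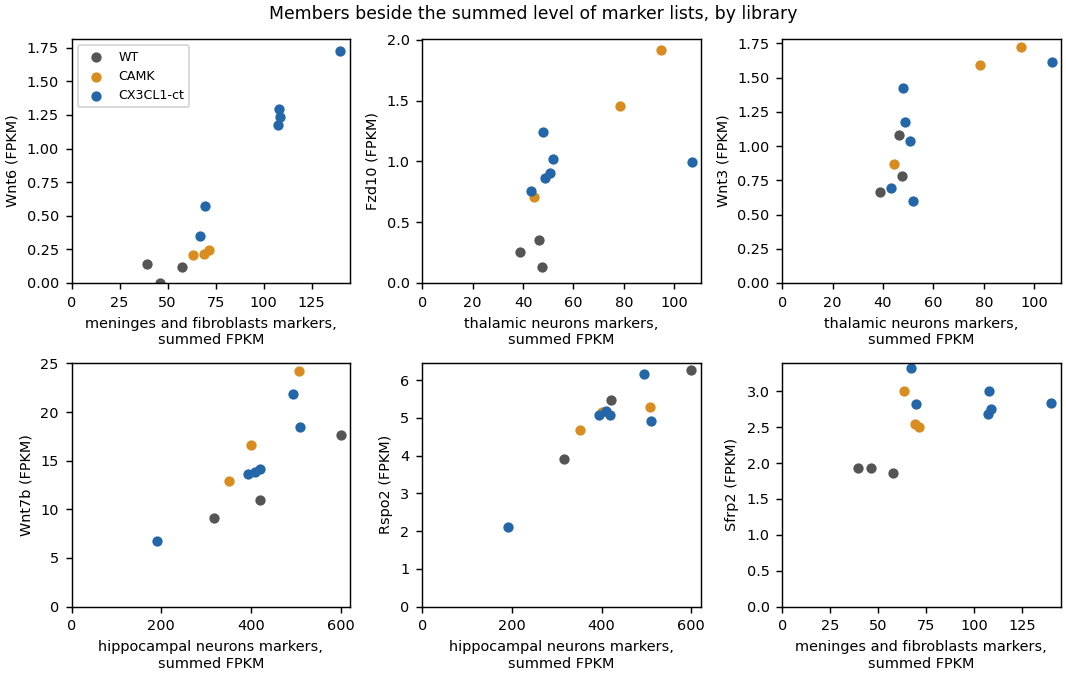
FPKM of Wnt6, Fzd10, Wnt3, Wnt7b, Rspo2 and Sfrp2 (y axis) against the summed FPKM of a marker list (x axis) in each library (points), by group. Wnt6 was highest, at 1.73, in the library with the highest meningeal sum, 140, and Rspo2 was lowest, at 2.12, in the library with the lowest hippocampal neuron sum, 191.

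Wnt9a, a ligand whose gene lies 16175 bases from Wnt3a on chromosome 11 (59306928 to 59333552), was lower in WT than in both transgenic groups. It stood at 1.16, 0.658 and 0.869 FPKM in WT, at 1.73, 1.88 and 1.60 in CAMK, and between 1.21 and 1.75 with a median of 1.60 in CX3CL1-ct. Every library with the driver lay above all WT libraries, by a narrow margin in CX3CL1-ct 5. The difference was 0.54 for CAMK (SE 0.13, adjusted p = 0.0964) and 0.43 for CX3CL1-ct (SE 0.11, adjusted p = 0.123), so neither passed. CX3CL1-ct lay -0.10 from CAMK (SE 0.11, adjusted p = 0.925).

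Wnt7a, a ligand that acts on axon terminals and on the vessels of the brain, read 5.71, 6.91 and 6.25 FPKM in WT, 5.29, 4.43 and 5.07 in CAMK, and 4.48 to 7.54 with a median of 6.70 in CX3CL1-ct. The 3 CAMK libraries lay below WT, and CX3CL1-ct 6 was the 1 library of its group within the CAMK range. Against CAMK the difference was 0.32 (SE 0.12, unadjusted p = 0.0238, adjusted p = 0.725), and CX3CL1-ct and WT differed by 0.02 (SE 0.12, adjusted p = 0.963). Wnt7b, which promotes the growth of dendrites, stood at 17.6, 9.12 and 10.9 FPKM in WT, 24.2, 13.0 and 16.6 in CAMK and 6.73 to 21.9 with a median of 14.0 in CX3CL1-ct. The groups overlapped, and it was lowest in CX3CL1-ct 5. Within the 3 pairs of same-numbered libraries it was higher in CAMK than in WT each time: the difference was 0.49, with an SE of 0.36 (adjusted p = 0.639) without the replicate block and 0.05 (unadjusted p = 0.000427, limma adjusted p = 0.0559) with it. CX3CL1-ct 5 also had the lowest summed hippocampal neuron genes, 191 FPKM, but WT 1, with the highest sum of 600, was not highest in Wnt7b. Another list, of 8 neocortical neuron genes, summed to 42.9 to 89.7 FPKM in WT, 95.5 to 153 in CAMK and 47.0 to 170 in CX3CL1-ct. The part of these lists in the Wnt7b values was not tested.

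Wnt5a, a ligand best known for signals that bypass β-catenin, was at 5.83, 4.44 and 5.41 FPKM in WT, 4.20, 4.38 and 4.87 in CAMK and 4.10 to 6.19 with a median of 5.71 in CX3CL1-ct. The groups overlapped in every comparison. Wnt4 stood at 2.07 ± 0.325 FPKM (SD, n = 3) in WT, 2.21 ± 0.253 (n = 3) in CAMK and 2.47 ± 0.415 (n = 6) in CX3CL1-ct. Wnt2 stood at 1.5 ± 0.422, 0.815 ± 0.253 and 0.950 ± 0.350 in the same order, with all CAMK libraries below WT (difference -0.46, adjusted p = 0.411) and the lowest value, 0.284, in CX3CL1-ct 5. Wnt3 stood at 0.842 ± 0.217, 1.40 ± 0.459 and 1.09 ± 0.399. Its 3 highest values, 1.72 in CAMK 2, 1.62 in CX3CL1-ct 5 and 1.59 in CAMK 3, came from the 3 libraries with the highest thalamic neuron sums, 94.8, 107 and 78.5 FPKM against 38.8 to 52.0 in the other 9. Wnt9b, 24328 bases from Wnt3 on chromosome 11, was at 0.758 and 0.394 FPKM in CAMK 2 and 3, and elsewhere between 0.0335 and 0.194.

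Wnt8b marks the cortical hem and the early hippocampal primordium, and it is the low ligand that lay farthest above in WT. This gene (chromosome 19, 44493472 to 44514273) did not reach the level for testing and is singled out after its values were seen. It read 0.482, 0.600 and 0.372 FPKM in WT, 0.0818, 0.154 and 0.0944 in CAMK, and 0.214, 0.161, 0.223, 0.216, 0.154 and 0.151 in CX3CL1-ct. All 9 libraries with the driver lay below all 3 WT libraries. In a fit without the filter, over all 29454 genes, the difference was -0.42 in CAMK against WT (SE 0.06, limma adjusted p = 0.00778) and -0.32 in CX3CL1-ct against WT (SE 0.05, adjusted p = 0.0158), while CX3CL1-ct and CAMK differed by 0.10 (adjusted p = 0.881). An estimated 15.9 to 25.7 fragments a library lay behind the WT values and 4.02 to 12.1 behind the others. Of the other low ligands, Wnt5b lay above WT in all CX3CL1-ct libraries (0.501 to 1.16 FPKM against 0.327 to 0.457) and Wnt2b in all CAMK libraries (0.281 to 0.476 against 0.0899 to 0.266), with adjusted p-values of 0.260 and 0.452 in the fit without the filter.

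**Figure D4:**
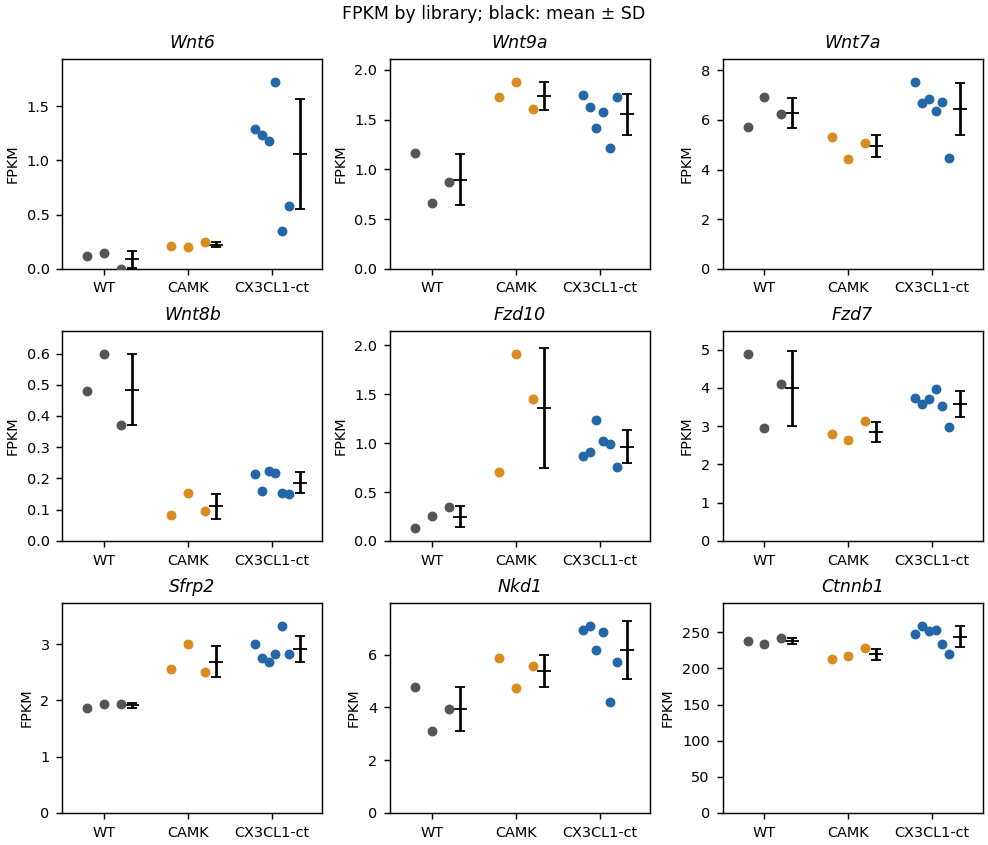
FPKM (y axis) of 9 members by group (x axis), 1 point a library, with black bars at the mean ± SD. The lowest CX3CL1-ct value of Wnt6, 0.347, lies above every other library (up to 0.246), the lowest WT value of Wnt8b, 0.372, lies above all libraries with the driver (up to 0.223), and all WT libraries lie below both other groups in Wnt9a, Fzd10 and Sfrp2.

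Among the receptors, Fzd10 showed the widest gap between WT and the groups with the driver. Fzd10 (chromosome 5, 128600844 to 128604093) read 0.133, 0.257 and 0.350 FPKM in WT, 0.707, 1.92 and 1.45 in CAMK, and 0.756 to 1.24 with a median of 0.952 in CX3CL1-ct. Every library of either transgenic group exceeded every WT library. The difference was 0.89 in CAMK (SE 0.18, unadjusted p = 0.000376, limma adjusted p = 0.0691) and 0.66 in CX3CL1-ct (SE 0.16, adjusted p = 0.104), while CX3CL1-ct and CAMK differed by -0.23 (SE 0.16, adjusted p = 0.841). With a pseudocount of 0.1 FPKM the CAMK difference was 2.03 and passed (adjusted p = 0.0481), and without CAMK 1 it was 1.10 and passed (adjusted p = 0.0115). CAMK 2 and 3, its highest libraries, were also high in thalamic neuron genes. CAMK 1 and 5 of the 6 CX3CL1-ct libraries had thalamic sums of 43.1 to 52.0 FPKM beside 38.8 to 47.5 in WT. The part of these genes in the Fzd10 result was not tested. Fzd10 passed the filter on low values only through libraries of CAMK and CX3CL1-ct, so it was tested because it is high there.

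Counting members without overlap, 4 of 26 separated CX3CL1-ct from WT, against 6.04 percent of all genes: Fzd10, Sfrp2, Wnt6 and Wnt9a, each higher in CX3CL1-ct (4.67 percent of all genes). In CAMK against WT 10 of 26 did, against 18.0 percent of all genes. Fzd10, Sfrp1, Sfrp2, Wnt6 and Wnt9a were higher (9.22 percent of all genes) and Ctnnb1, Fzd6, Lrp6, Wnt2 and Wnt7a lower in CAMK (8.80 percent), and none of these 10 passed the adjusted test. Both counts hold Fzd10, which met the filter on low values only through CAMK and CX3CL1-ct libraries, and Wnt6, which met it only through CX3CL1-ct libraries. Those members were thus counted because they are high there.

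Fzd7, a receptor known from stem and progenitor cells, stood at 4.90, 2.96 and 4.11 FPKM in WT, 2.80, 2.63 and 3.14 in CAMK and 2.97 to 3.97 with a median of 3.64 in CX3CL1-ct. WT 2 lay inside the CAMK range. The difference between CAMK and WT was -0.35 (SE 0.13, unadjusted p = 0.0221, adjusted p = 0.316). Fzd3, which guides axon tracts in the forebrain, read 29.9, 40.4 and 38.5 FPKM in WT, 33.8, 35.5 and 35.5 in CAMK and 31.7 to 41.2 with a median of 38.9 in CX3CL1-ct, and its groups overlapped throughout. Fzd1 read 9.98, 6.60 and 8.92 in WT, 8.87, 7.37 and 8.75 in CAMK and 7.43 to 12.3 with a median of 8.71 in CX3CL1-ct, again with full overlap. Fzd9, a receptor known from the hippocampus, read 8.41, 4.61 and 4.76, then 8.32, 6.09 and 6.40, then 4.76 to 8.81 with a median of 5.73. In each group 1 library stood above the rest in Fzd9: WT 1, CAMK 1 and CX3CL1-ct 6.

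None of the other frizzled genes passed in any of the 3 comparisons. Fzd6 stood at 4.78 ± 0.583 FPKM (SD, n = 3) in WT, 4.22 ± 0.0521 (n = 3) in CAMK and 4.47 ± 0.459 (n = 6) in CX3CL1-ct. Fzd8 stood at 3.44 ± 0.107, 3.67 ± 0.594 and 4.27 ± 0.679 in that order, Fzd2 at 2.77 ± 0.125, 2.67 ± 1.05 and 3.58 ± 0.635, and Fzd4, a receptor needed by blood vessels, at 2.15 ± 0.433, 1.94 ± 0.134 and 2.10 ± 0.334. Fzd2 came closest to the unadjusted limit in CX3CL1-ct against CAMK, at 0.34 (SE 0.16, unadjusted p = 0.0521, adjusted p = 0.775). The summed frizzled FPKM was 70.6 to 75.2 in CX3CL1-ct, above the 68.0 to 70.1 of WT and the 66.1 to 69.1 of CAMK. After each library was scaled to one 75th percentile, the CX3CL1-ct sums (69.28 to 73.97) overlapped those of WT (69.72 to 71.55). The CX3CL1-ct sums still lay above those of CAMK (67.09 to 68.96). The separation from WT was thus not kept under that scaling.

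Sfrp2, a secreted protein that binds Wnt ligands, rose in CX3CL1-ct against WT. Sfrp2 (chromosome 3, 83766321 to 83789956 as deposited, with its end at 83774316 in GENCODE M21) read 1.87, 1.93 and 1.93 FPKM in WT, 2.55, 3.0 and 2.51 in CAMK, and 3.0, 2.75, 2.69, 2.83, 3.33 and 2.83 in CX3CL1-ct. All 9 libraries with the driver lay above WT, and the 2 transgenic groups overlapped. The difference from WT was 0.42 in CX3CL1-ct (SE 0.08, limma adjusted p = 0.0420, higher in 6 of 6 libraries). In CAMK it was 0.34 (SE 0.09, unadjusted p = 0.00281, adjusted p = 0.141), and the 2 groups with the driver differed by 0.08 (SE 0.08, adjusted p = 0.906). The call was close to the threshold: it was lost without CX3CL1-ct 1, 2, 3 or 6 and without WT 1, 2 or 3, each left out alone (adjusted p of 0.0502 to 0.198), and when CX3CL1-ct 1 to 3 were averaged into 1 library (0.44, adjusted p = 0.181). An antisense transcript, Gm26771, overlaps an exon of Sfrp2 and read 0.186 to 0.562 FPKM in WT, 0.250 to 1.61 in CAMK and 0.220 to 0.716 in CX3CL1-ct. The sources used here do not say whether counting used strand, so reads of these overlapping genes may not be told apart.

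Sfrp1, a related Wnt-binding protein made by neural progenitors, read 8.04, 8.86 and 8.11 FPKM in WT, 9.52, 9.60 and 8.99 in CAMK, and 8.03 to 14.8 with a median of 10.3 in CX3CL1-ct. CAMK lay just above WT, and CX3CL1-ct ran from the WT level in library 5 to the highest value in library 6. The difference was 0.28 in CX3CL1-ct against WT (SE 0.14, adjusted p = 0.426). Sfrp5 read 0.555, 0.747 and 0.674 in WT, 0.538, 0.593 and 0.409 in CAMK and 0.278 to 0.849 in CX3CL1-ct, and Sfrp4 read 0.335 to 0.820 over all groups.

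Ctnnb1, which encodes β-catenin, read 239, 234 and 242 FPKM in WT, 213, 218 and 228 in CAMK, and 247, 259, 252, 253, 234 and 220 in CX3CL1-ct. CAMK lay below WT in all 3 libraries, and 5 of 6 CX3CL1-ct libraries lay above CAMK. CX3CL1-ct exceeded CAMK by 0.15 (SE 0.06, unadjusted p = 0.0248, adjusted p = 0.731), and WT by 0.03 (SE 0.06, adjusted p = 0.850). Ulk4, on the other strand, shares exon sequence with Ctnnb1 and read 3.01 to 4.24 FPKM. Lrp6, the co-receptor with the higher level, read 12.3, 13.3 and 13.1 in WT, 11.7, 12.1 and 12.1 in CAMK and 12.0 to 13.3 with a median of 12.7 in CX3CL1-ct. Lrp5 stood at 2.16 ± 0.214 (SD, n = 3), 2.06 ± 0.332 (n = 3) and 2.49 ± 0.445 (n = 6) in WT, CAMK and CX3CL1-ct.

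Nkd1 binds dishevelled and, like Axin2, is both an inhibitor of the pathway and one of its common target genes. Nkd1 (chromosome 8, 88521354 to 88594884) read 4.77, 3.11 and 3.95 FPKM in WT, 5.88, 4.73 and 5.55 in CAMK, and 6.92, 7.10, 6.20, 6.86, 4.21 and 5.71 in CX3CL1-ct. CX3CL1-ct 5 lay inside the WT range and the other 5 above it. The difference from WT was 0.53 in CX3CL1-ct (SE 0.15, adjusted p = 0.153) and 0.38 in CAMK (SE 0.17, adjusted p = 0.389). Without CX3CL1-ct 5 the former was 0.62 and passed (adjusted p = 0.0288). Axin2, a scaffold of the β-catenin destruction complex, stood at 7.87 ± 0.283 FPKM (SD, n = 3) in WT, 8.09 ± 0.773 (n = 3) in CAMK and 8.52 ± 0.736 (n = 6) in CX3CL1-ct. Its differences were 0.10 (SE 0.08, adjusted p = 0.627) in CX3CL1-ct against WT and 0.07 (SE 0.08, adjusted p = 0.936) in CX3CL1-ct against CAMK. Axin2 thus overlapped between groups in all 3 comparisons.

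Dkk3, a divergent member of the Dickkopf family abundant in hippocampal neurons, read 31.0, 16.8 and 23.9 FPKM in WT, 28.4, 21.2 and 25.3 in CAMK and 14.1 to 39.7 with a median of 26.5 in CX3CL1-ct. Its ends were CX3CL1-ct 5 and CX3CL1-ct 6, the same libraries that stood lowest and highest of their group in the summed hippocampal neuron genes, at 191 and 510 FPKM. Rspo2, which strengthens Wnt signals through Lgr receptors, stood at 5.21 ± 1.19 (SD, n = 3), 5.04 ± 0.326 (n = 3) and 4.76 ± 1.37 (n = 6) in WT, CAMK and CX3CL1-ct. It too was lowest in CX3CL1-ct 5, at 2.12. Tcf7l1, a TCF protein that mostly represses, read 0.514 to 0.762 in WT, 0.386 to 0.648 in CAMK and 0.343 to 0.646 in CX3CL1-ct, too low to be tested.

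Of 67 further genes of the pathway, 57 were tested, and 1 of them, Dkk1, passed in any comparison. Of all genes, 0.454 percent passed in CX3CL1-ct against WT, 0.358 percent in CAMK against WT and 0.0606 percent in CX3CL1-ct against CAMK. Dkk1, a secreted inhibitor that binds Lrp5 and Lrp6, fell in both groups with the driver. It read 2.58, 2.72 and 1.93 FPKM in WT, 0.0384, 0 and 0.146 in CAMK, and 0.0438 to 0.518 in CX3CL1-ct. No library with the driver reached the lowest WT value, and Dkk1 passed the filter on low values through the 3 WT libraries alone, so it was tested because it is high there. The difference was -1.68 in CAMK against WT (SE 0.18, limma adjusted p = 0.00136) and -1.36 in CX3CL1-ct against WT (SE 0.16, adjusted p = 0.00178), while CX3CL1-ct and CAMK differed by 0.31 (SE 0.16, adjusted p = 0.775). Hand2, of a list of 6 neural crest genes, was also high in WT. It read 3.24 to 3.49 FPKM in WT, 0.0308 to 0.126 in CAMK and 0.0435 to 0.821 in CX3CL1-ct. That list summed to 15.0 to 16.2 FPKM in WT, 8.96 to 12.3 in CAMK and 9.58 to 14.2 in CX3CL1-ct. The part of these genes in the Dkk1 result was not tested.

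In the lists by role, no other gene passed. Of the 2 secretion genes, Wls, which carries Wnt proteins to the cell surface, stood at 8.01 ± 1.09 FPKM (SD, n = 3) in WT, 8.92 ± 1.41 (n = 3) in CAMK and 11.1 ± 2.47 (n = 6) in CX3CL1-ct, and Porcn, which attaches their lipid, at 18.8 ± 1.58, 15.3 ± 1.89 and 15.9 ± 2.03. Of the R-spondins and their receptors, 5 of 8 were tested. All 5 lay above 0 in CX3CL1-ct against WT (62.7 percent of all genes did) and against CAMK (63.2 percent). These comparisons share the CX3CL1-ct libraries. Rspo2, an R-spondin counted with the members and not in this list, lay at -0.14 and -0.11, in that order. Lgr4, a receptor of R-spondins, read 8.78 to 9.48 in WT, 8.60 to 10.2 in CAMK and 9.96 to 12.7 in CX3CL1-ct, above all WT libraries (difference 0.26, SE 0.08, adjusted p = 0.177). Of 13 other extracellular antagonists, 8 were tested. Besides Dkk1, Kremen1, a receptor for Dickkopf proteins, stood at 3.04 ± 0.0309, 2.21 ± 0.446 and 2.66 ± 0.372, and Apcdd1, a membrane-bound inhibitor, at 20.5 ± 3.29, 22.4 ± 1.59 and 28.7 ± 6.40.

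All 12 genes of the destruction complex and the dishevelled proteins were tested. Dvl3, a dishevelled, stood at 6.42 ± 0.801 FPKM (SD, n = 3) in WT, 8.82 ± 0.787 (n = 3) in CAMK and 7.35 ± 1.05 (n = 6) in CX3CL1-ct, and Apc2, the neuronal APC protein, at 36.6 ± 3.80, 46.0 ± 6.40 and 45.8 ± 4.98. Csnk1d, a kinase, stood at 34.3 ± 1.19, 36.0 ± 1.58 and 36.4 ± 1.08. Of 12 nuclear partners of β-catenin, all tested, 10 lay above 0 in CAMK against WT (50.5 percent of all genes did) with a median of 0.18 beside 0.00 for all genes. Bcl9l, a coactivator, read 4.85 to 5.64 in WT, 7.02 to 7.72 in CAMK and 5.55 to 7.12 in CX3CL1-ct (CAMK against WT 0.40, SE 0.09, adjusted p = 0.0783). Lef1, a DNA-binding partner, read 1.72 to 2.74 in WT, 3.29 to 4.90 in CAMK and 2.42 to 6.03 in CX3CL1-ct, and Tle3, a corepressor, 7.62 to 9.13, 10.7 to 14.4 and 8.67 to 15.3. The highest Lef1 values, 6.03 in CX3CL1-ct 5, 4.90 in CAMK 2 and 4.56 in CAMK 3, came from the libraries with the highest thalamic neuron sums. CAMK 1, which was not among those libraries, read 3.29. The part of thalamic neuron genes in Lef1 was not tested.

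Of 12 feedback and target genes 10 were tested. Ccnd1, the cyclin often read as a target of the pathway, stood at 11.5 ± 0.244 FPKM (SD, n = 3) in WT, 9.80 ± 0.376 (n = 3) in CAMK and 10.4 ± 0.670 (n = 6) in CX3CL1-ct, with a difference of -0.21 in CAMK against WT (adjusted p = 0.233). Of 13 alternative receptors and planar polarity genes, 12 were tested, 10 of them above 0 in CX3CL1-ct against WT (62.7 percent of all genes) and 9 in CAMK against WT (50.5 percent). Vangl1, a planar polarity membrane protein, read 1.52 to 1.78 in WT, 2.48 to 3.11 in CAMK and 2.06 to 2.94 in CX3CL1-ct, without overlap with WT in either group (0.53, adjusted p = 0.0713, and 0.34, adjusted p = 0.169). Ptk7, a co-receptor of that branch, was 6.19 to 6.94, 6.74 to 7.34 and 7.33 to 8.34. Daam1, which links dishevelled to the cytoskeleton, was 34.7 to 37.8, 42.1 to 44.2 and 38.9 to 45.8.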

How the data were processed

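RNA-seq of mouse hippocampus was analysed in 3 WT, 3 CAMK and 6 CX3CL1-ct libraries, grouped by sample title. The authors' deposited table holds 1 FPKM value per gene and library. Per the submitters' processing notes it was made with TopHat, Bowtie, Cufflinks and Cuffdiff on mm10. Versions, the scaling between libraries and the use of strand are not given in the sources used here.

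Values were used as deposited, as log2(FPKM + 1). limma 3.58.1 in R 4.3.3 (eBayes with trend, 3 group means, all 12 libraries) was run on genes with at least 1 FPKM in at least 3 libraries, with two-sided p-values, Benjamini-Hochberg adjustment and a threshold of 0.05. The steps were tested on simulated data. For depth, each value above 0 of a single-exon gene was read as 1 fragment, assuming fragments of 180 nt. The most frequent depth obtained in this way was taken. Fragments of a member were then estimated from that depth and its full exon length. Gene positions are from the table, exon overlaps from GENCODE M21, with all 40 members matched by ID. Python 3.11.15 with pandas 2.3.3 served for the tables.

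Members with a mean of at least 1 FPKM in a group are named. Those with an unadjusted p under 0.05, and the 3 highest of each role, are given by library in WT and CAMK. In CX3CL1-ct they are given by library or as a range. Of each further list up to 3 genes with the smallest p are named. Members and lists were chosen with earlier results of these data known. Deviations of same-numbered CAMK and WT libraries from their group means correlated by 0.236, 0.163 and 0.100, all above 0. The labels give no pairing beyond the replicate number, so the block is an alternative fit. The block moved the count of genes in CAMK against WT from 59 to 112, with 0 members in either. In the other pairs of groups some of these correlations lay below 0.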

Additional observations from a re-analysis of the deposited data

Results flagged for a closer look

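Rspo2 had 1 library far from the rest of its group: CX3CL1-ct 5 read 2.12 FPKM, the nearest of the other 5 was 4.93 and the highest 6.17. It is 1 of 26 members tested this way, and chance marks about 1 in 20 such groups. The same library had the lowest summed level of the hippocampal neuron genes, and the part of that in the Rspo2 value was not tested.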

How the results depend on the processing

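No difference with an unadjusted p under 0.05 changed sign, and in CX3CL1-ct against CAMK 0 members passed under any alternative run. Of all genes, 9 to 48 passed there. Other members did change sign, so the counts above 0 move: up to 5 of 26 in CX3CL1-ct against WT (without WT 1; 4 with scaling to one 75th percentile), 4 in CAMK against WT and 3 in CX3CL1-ct against CAMK. In CX3CL1-ct against WT the 1 member, Sfrp2, still passed with a pseudocount of 0.1 FPKM, a robust prior, or without CX3CL1-ct 4. Of all genes, 73, 86 and 153 passed in these runs, beside 75 in the main fit. The member count was 0 with a mean of at least 1 FPKM required and with scaling to one 75th percentile (adjusted p of Sfrp2 0.0957). It was also 0 with only the 2 groups fitted and with CX3CL1-ct 1 to 3 averaged, an alternative chosen after seeing the data. Of all genes, 38, 67, 38 and 28 passed in these runs, in that order. With no filter the member count was 1 (144 of all 29454 genes passed), but that member was Wnt8b, and Sfrp2 had an adjusted p of 0.0599. With 1 library left out at a time the member count ran from 0 to 3. It was 3 (Nkd1, Sfrp2 and Wnt6) without CX3CL1-ct 5, where 158 of all genes passed. It was 0 without CX3CL1-ct 1, 2, 3 or 6 or any WT library. Of all genes, 40, 37, 37 and 104 passed without CX3CL1-ct 1, 2, 3 and 6, and 69, 27 and 26 without WT 1, 2 and 3. In CAMK against WT the count was 1 with a pseudocount of 0.1 FPKM (Fzd10) and with no filter (Wnt8b), and ran from 0 to 1 with 1 library left out. The cause was not tested. With the replicate number as a block, 0 members passed in every comparison, so that Sfrp2 was lost in CX3CL1-ct against WT (0.39, adjusted p = 0.180). There, deviations of same-numbered libraries did not all correlate above 0. Genes called over all 16503 with the block numbered 48 in CX3CL1-ct against CAMK (10 without it), 86 in CX3CL1-ct against WT (75) and 112 in CAMK against WT (59). Depth limits the low members: Wnt8b at 0.600 FPKM rested on an estimated 25.7 fragments.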

Other observations

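Frzb, a secreted Wnt-binding protein close to the Sfrp genes, and Lgr5, a receptor of R-spondins, were high in the CX3CL1-ct libraries that lie closest to each other. Frzb read 8.32, 8.63 and 7.95 FPKM in CX3CL1-ct 1, 2 and 3, 2.73, 1.58 and 2.13 in CX3CL1-ct 4 to 6, 2.47 to 3.19 in WT and 1.77 to 2.39 in CAMK. Lgr5 read 2.09, 1.80 and 1.72 in the first 3 and 0.337 to 1.02 in the others of that group. Neither gene passed the test in CX3CL1-ct against CAMK (limma adjusted p = 0.775 for both). Tcf7l2, a TCF protein strong in the thalamus, read 23.0 and 15.8 FPKM in CAMK 2 and 3 and 12.2 in CX3CL1-ct 5, the libraries high in thalamic neuron genes, and 1.04 to 4.48 in the other 9. Frzb, Lgr5 and Tcf7l2 were singled out after their values were seen.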
